A study of Mus musculus with 10 samples.

Results

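The 9 genes described here encode the receptors, co-receptors and transcription factors of the hedgehog signalling pathway, with its most used response genes: Ptch1, Gli1, Gli2, Gli3, Hhip, Cdon, Boc, Gas1 and Smo. They were chosen by name, each symbol stood in 1 row of the table, and they are 9 of 55401 genes counted. All 9 passed the filter on low counts that left 19126 genes for testing. Their RNA was measured in the ectoderm of mouse (Mus musculus) forelimb buds at embryonic stage E9.75 in 3 libraries labelled as double knockouts of Sp8 and Sp6 (DKO) and in 3 libraries of wild-type (WT) littermates. Sp8 and Sp6 are zinc finger transcription factors of the limb ectoderm; their knockout alleles and the strain and sex of the embryos were not given in the sources used here. The ectoderm of about 2 forelimb buds, peeled off after 20 min in cold trypsin (0.25%), went into each replicate. A further 4 samples at E10.5, 2 lacking Sp6 and 2 WT, were not analysed here.

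Hedgehog ligands bind the receptor Patched, and a Patched protein without ligand holds the membrane protein Smoothened inactive. Active Smoothened changes the GLI transcription factors from repressors to activators at the primary cilium, and Ptch1, Gli1 and Hhip are transcribed in response in many tissues. In the limb bud the ligand is SHH, made by the posterior mesenchyme beneath the ectoderm, and the FGF proteins of the apical ectodermal ridge, the thickened rim of the ectoderm, sustain its production. In the mouse neural tube, Cdon, Boc and Gas1 are known to be lowered by hedgehog signalling while Ptch1 and Gli1 are raised.

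The library totals ranged from 75996667 to 86142321 counts in DKO and from 64432348 to 87040786 in WT. Each DKO library had less Sp8 (2.38 to 5.86 CPM, counts scaled to a common library size) than each WT library (31.3 to 43.2 CPM). Sp6 lay between 13.9 and 133.2 CPM in DKO and between 228 and 319.9 CPM in WT. Its change did not pass the test (edgeR adjusted p = 0.206), though it passed without DKO 40 (log2 fold change -1.45, edgeR adjusted p = 0.0489). Of the 3841 exon bases of Sp6, 3329 overlap a transcript on the other strand, and unstranded libraries cannot separate such reads. The ectoderm marker Epcam was at 384 to 439 CPM in DKO and 569 to 635 CPM in WT. The endothelial marker Cdh5 had 0 counts in all 6 libraries, but other endothelial markers were present. Pecam1 had 60, 12 and 50 counts in DKO 17, DKO 40 and DKO 41, against 17, 8 and 32 in WT 32, WT 53 and WT 56. Sox17 was at 7.96, 4.16 and 1.83 CPM in the same DKO libraries and at 0.300 CPM or less in WT. Without Sox17 the summed endothelial markers overlapped between the groups, at 1.31 to 2.20 CPM in DKO and 1.39 to 1.86 CPM in WT. The mesenchyme marker Prrx1 differed between libraries of 1 group: 3.51, 23.3 and 12.8 CPM in DKO 17, DKO 40 and DKO 41, and 29.0, 1.61 and 0.412 CPM in WT 32, WT 53 and WT 56. Gli1, Ptch1 and Cdon are given below with and without WT 32.

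Among the response genes, Gli1 and Ptch1 fell in DKO and Hhip was not called. Gli1 (ENSMUSG00000025407.7, GRCm38 chromosome 10, 127329882 to 127341974, minus strand), which encodes an activator whose transcription is the usual readout of the pathway, had 92, 131 and 413 counts in DKO 17, DKO 40 and DKO 41, against 1063, 921 and 1005 in WT 32, WT 53 and WT 56. Scaled by depth these were 1.10, 1.71 and 4.63 CPM in DKO and 12.3, 14.5 and 11.5 CPM in WT. The DKO libraries lay below the WT libraries without overlap, and DKO 41 stood above the other 2 DKO libraries. The mean was 2.48 ± 1.88 CPM in DKO and 12.8 ± 1.57 CPM in WT (SD, n = 3 each), 5.15-fold lower, with a log2 fold change of -2.32 (SE 0.40, edgeR adjusted p = 0.0139). Without DKO 41 the log2 fold change was -3.19 (edgeR adjusted p = 0.00335). The call was lost without DKO 40, WT 32 or WT 56 (edgeR adjusted p = 0.0844, 0.0598 and 0.0542), at log2 fold changes between -2.41 and -2.13. Of its exon bases, 327 overlap those of Arhgap9 or of an antisense transcript, and unstranded libraries cannot separate such reads.

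Ptch1 (ENSMUSG00000021466.12, chromosome 13, 63508328 to 63573598, minus strand), the main receptor and a response gene that limits the signal, was at 7.96, 14.7 and 18.3 CPM in DKO 17, DKO 40 and DKO 41, against 39.5, 32.5 and 50.3 CPM in WT 32, WT 53 and WT 56. The highest DKO library stayed below the lowest WT library. Its mean was 13.6 ± 5.24 CPM in DKO and 40.8 ± 8.999 CPM in WT (SD, n = 3 each), 2.99-fold lower. It differed by -1.58 on the log2 scale (SE 0.29, edgeR adjusted p = 0.0177), and the call was lost without DKO 40, WT 32 or WT 56 (edgeR adjusted p = 0.0881, 0.0702 and 0.0827). In the DKO libraries Ptch1 and Gli1 had the same order, lowest in DKO 17 and highest in DKO 41. The 250 bases before the RefSeq starts (GRCm38.p6) of Ptch1 and Hhip, a response gene that fell and one that did not, are shown because the factors removed in DKO belong to the SP family, which binds GC boxes. Capitals mark the GC box GGGCGG or its reverse complement.
Ptch1, chr13:63565736-63565985, minus strand: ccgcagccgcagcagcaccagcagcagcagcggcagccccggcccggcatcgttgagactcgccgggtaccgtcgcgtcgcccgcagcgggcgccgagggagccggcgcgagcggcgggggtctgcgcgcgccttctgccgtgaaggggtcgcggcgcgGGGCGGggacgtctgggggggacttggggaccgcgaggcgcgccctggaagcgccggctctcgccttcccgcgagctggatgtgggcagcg
Hhip, chr8:80058009-80058258, minus strand: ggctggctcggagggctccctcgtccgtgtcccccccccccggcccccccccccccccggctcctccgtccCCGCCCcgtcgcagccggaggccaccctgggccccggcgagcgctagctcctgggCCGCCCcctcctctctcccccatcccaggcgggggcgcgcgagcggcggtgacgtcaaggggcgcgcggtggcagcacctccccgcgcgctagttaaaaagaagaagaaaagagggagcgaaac
The Ptch1 window held 1 GC box and the Hhip window 2, and such a box stood in 32.7% of 32851 windows of the same 250 bases. The Ptch1 start used there lies 7863 bases inside the gene as GENCODE draws it. Neither window held the GLI site GACCACCCA on either strand, which 0.225% of the windows hold, nor the GT box GGGTGTGG (3.2%). Windows were at hand for 7 of the 9 genes, all but Gli1 and Boc, with no GC box in those of Smo and Cdon and 1 or 2 in the others. G and C made 78.4% of the Ptch1 window and 76.0% of the Hhip window. The 32.7% was not matched for such content, so these counts show no excess of GC boxes. The Cdon start used there lies 30948 bases inside the gene as GENCODE draws it, so its window does not stand before that gene start. The start used for Gli3 lies 488 bases inside its gene, and all 250 bases of the Gli3 and Gas1 windows are annotated exon. A match is a run of letters and was not tested for binding.

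Hhip (ENSMUSG00000064325.4, chromosome 8, 79965851 to 80058006, minus strand), a decoy that binds hedgehog ligands at the cell surface and a response gene in other tissues, was not called. It was at 2.44, 2.60 and 4.36 CPM in DKO 17, DKO 40 and DKO 41, against 1.79, 2.01 and 1.84 CPM in WT 32, WT 53 and WT 56. Every DKO library was above every WT library, yet the difference, 0.76 on the log2 scale (SE 0.35), missed the threshold (edgeR adjusted p = 0.301), as it did with each library left out.

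**Figure D1:**
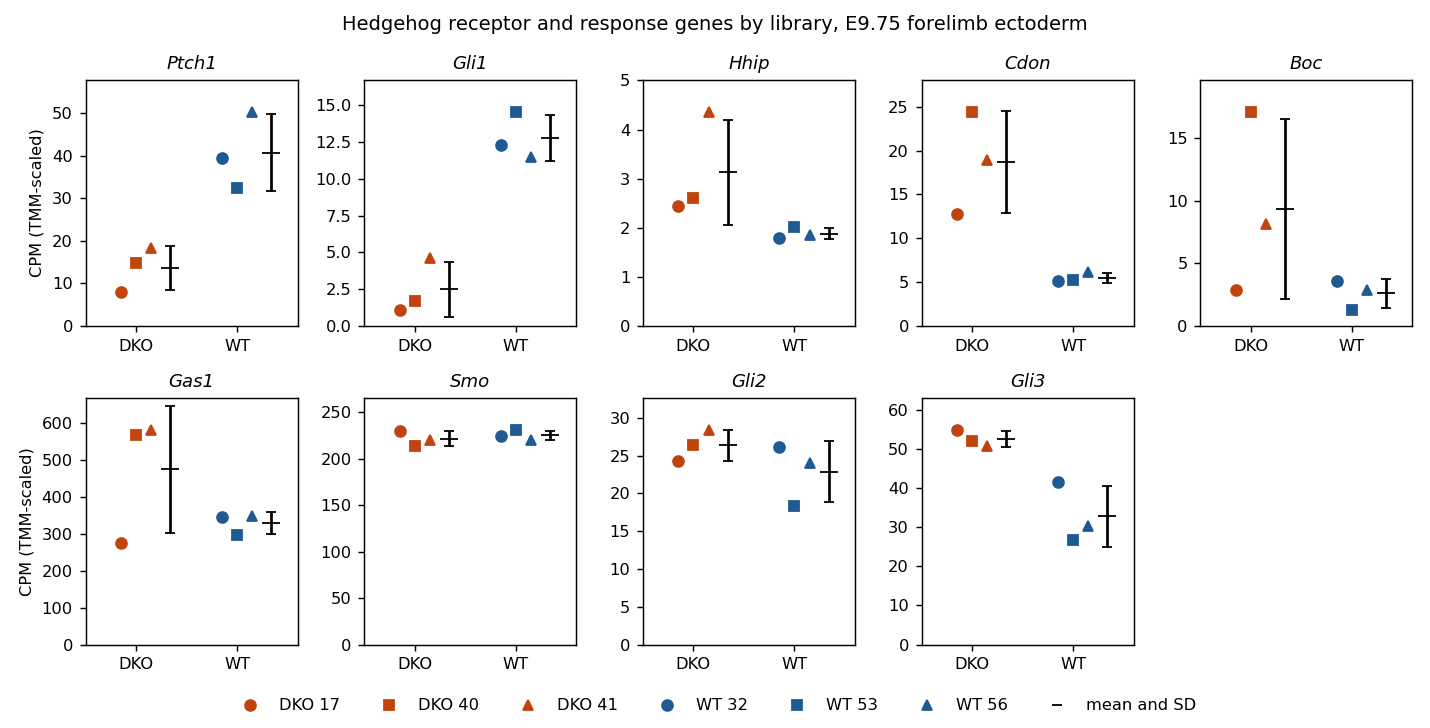
CPM, scaled by TMM (a between-library scaling factor) and starting at 0, of the 9 genes in each library, with the mean and SD of each group of 3. Gli1 and Ptch1 are lower in each DKO library than in each WT library, Cdon, Gli3 and Hhip are higher, and Smo lies between 213.8 and 230.5 CPM in all 6.

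The ligands themselves were at or near 0 counts. Shh had 0 counts in the DKO libraries and 20, 0 and 0 counts in WT 32, WT 53 and WT 56. A count of 0 allows up to 0.0121 CPM over the DKO group (3 counts; counting error only). Ihh had 16 counts in DKO 17, 17 in WT 53 and 0 in the other libraries, and Dhh had 0 in the DKO libraries and 4, 0 and 9 in WT 32, WT 53 and WT 56. None of the 3 ligand genes passed the filter on low counts. The library with Shh counts, WT 32, also held Hoxd13 (519 counts, against 0 and 18 in WT 53 and WT 56), a gene of posterior limb mesenchyme chosen here after its values were seen. Gli1 in WT 32 (12.3 CPM) lay between WT 53 (14.5 CPM) and WT 56 (11.5 CPM), both with 0 Shh counts. Without WT 32 the log2 fold changes of Gli1 and Ptch1 were -2.38 and -1.64, and neither was called (edgeR adjusted p = 0.0598 and 0.0702). The part of posterior mesenchyme RNA in the levels of Gli1 and Ptch1 was not tested.

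Smo, Gli2 and Gli3, which carry the signal without being standard response genes, were not called. Smo (ENSMUSG00000001761.7, chromosome 6, 29735503 to 29761365), the transducer that Patched holds in check, was at 229.8, 213.8 and 220.2 CPM in DKO 17, DKO 40 and DKO 41, against 224.6, 230.5 and 220.5 CPM in WT 32, WT 53 and WT 56. These values varied least of the 9 genes, with a log2 range of 0.11 over the 6 libraries. On the log2 scale the difference was -0.03 (SE 0.10, edgeR adjusted p = 0.925), and under upper quartile scaling it was 0.016.

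Gli2 (ENSMUSG00000048402.14, chromosome 1, 118834132 to 119053619, minus strand), the main activator of the family in mouse, was at 24.3, 26.4 and 28.4 CPM in DKO 17, DKO 40 and DKO 41, against 26.2, 18.4 and 24.0 CPM in WT 32, WT 53 and WT 56. The groups overlapped (log2 fold change 0.20, SE 0.18, edgeR adjusted p = 0.634). Gli3 (ENSMUSG00000021318.15, chromosome 13, 15463235 to 15730026), the main repressor in the limb bud, was at 54.7, 52.0 and 50.6 CPM in DKO 17, DKO 40 and DKO 41, against 41.4, 26.6 and 30.1 CPM in WT 32, WT 53 and WT 56. Each DKO library was above each WT library. The log2 fold change of Gli3 was 0.67 (SE 0.18) and stood just outside the threshold (edgeR adjusted p = 0.0696). It passed under upper quartile scaling, with only genes averaging at least 1 CPM tested, and in DESeq2 (adjusted p = 0.0496, 0.0477 and 0.0131).

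Per kilobase of exon, the make-up of the GLI family differed between the groups. Gli1 made 2.34%, 3.57% and 8.97% of the summed level of the 3 GLI genes in DKO 17, DKO 40 and DKO 41, against 23.3%, 34.8% and 25.8% in WT 32, WT 53 and WT 56. Gli3 made 60.3%, 56.4% and 51.1% in the same DKO libraries, against 40.7%, 33.2% and 35.2% in the WT libraries. Neither share overlapped between the groups, while the share of Gli2 did (37.4% to 40.0% in DKO and 31.97% to 39.1% in WT). The shares are parts of the same sum, so a lower share of Gli1 by itself raises those of Gli2 and Gli3. The ratio of Gli1 to Gli3 per length was 0.039 to 0.176 in DKO and 0.571 to 1.05 in WT, and that of Ptch1 to Smo was 0.0137 to 0.0329 in DKO and 0.0558 to 0.0905 in WT. These shares were not tested.

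The co-receptors bind ligand beside Patched, and of these Cdon rose. Cdon (ENSMUSG00000038119.15, chromosome 9, 35421128 to 35507652), an immunoglobulin and fibronectin repeat protein, was at 12.8, 24.4 and 19.0 CPM in DKO 17, DKO 40 and DKO 41, against 5.18, 5.20 and 6.12 CPM in WT 32, WT 53 and WT 56. The WT libraries lay within 1 CPM of each other, and the lowest DKO library was above all of them. Its mean was 18.7 ± 5.82 CPM in DKO and 5.50 ± 0.542 CPM in WT (SD, n = 3 each), 3.40-fold higher, with a log2 fold change of 1.76 (SE 0.28, edgeR adjusted p = 0.0103). The call was lost without WT 32 or WT 56 (edgeR adjusted p = 0.069 and 0.0536) and held without any other single library.

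Boc (ENSMUSG00000022687.12, chromosome 16, 44485049 to 44558897, minus strand), the paralogue of Cdon, was at 2.84, 17.1 and 8.11 CPM in DKO 17, DKO 40 and DKO 41, against 3.60, 1.31 and 2.87 CPM in WT 32, WT 53 and WT 56. DKO 17 lay within the WT range and the other DKO libraries above it. The difference was 1.77 on the log2 scale (SE 0.62, edgeR adjusted p = 0.167). It was 2.21 without DKO 17 (edgeR adjusted p = 0.0372) and 1.04 without DKO 40 (edgeR adjusted p = 0.483), so single libraries decided the value, and DESeq2 called it with all 6 (adjusted p = 0.0331). The order of Boc over the DKO libraries was that of the mesenchyme marker Prrx1 (3.51, 23.3 and 12.8 CPM). The mesenchyme marker Twist1 had that order too, but Msx1, Prrx2 and Col1a2 of the same list did not. In WT both Boc and Prrx1 were highest in WT 32, but Boc was lowest in WT 53 and Prrx1 in WT 56. The part of mesenchyme RNA in the level of Boc was not tested.

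Gas1 (ENSMUSG00000052957.8, chromosome 13, 60174405 to 60177365, minus strand), a membrane-anchored co-receptor, was at 276, 566.8 and 579.9 CPM in DKO 17, DKO 40 and DKO 41, against 344.8, 295.2 and 346.8 CPM in WT 32, WT 53 and WT 56. DKO 17 lay below the WT libraries and the other DKO libraries well above them. The difference was 0.53 on the log2 scale (SE 0.25, edgeR adjusted p = 0.305), and 0.80 without DKO 17 (edgeR adjusted p = 0.0109). In Cdon, Boc and Gas1 alike, DKO 17 was the lowest DKO library. The exons of Gas1 share 589 bases with a long noncoding RNA on the other strand. Gas1 made 96.5% to 97.9% of the summed co-receptor level per length in DKO and 98.7% to 99.0% in WT, so the rise of Cdon was one within a small share, 1.23% to 1.74% in DKO and 0.569% to 0.67% in WT.

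Set in order by CPM per kilobase of exon in WT, the levels ran Gas1, Smo, Gli3, Gli2, Ptch1, Gli1, Cdon, Boc and Hhip. Gas1 averaged 160 ± 58.1 CPM per kilobase in DKO and 111.1 ± 9.87 in WT, and stood above 98.1% and 97.1% of the genes tested in those groups. Smo averaged 39.4 ± 1.43 in DKO and 40.1 ± 0.894 in WT. Gas1, Smo, Gli3 and Gli2 kept places 1 to 4 in DKO, where Cdon (2.43 ± 0.754, against 0.713 ± 0.0702 in WT) and Boc stood above Ptch1 (0.962 ± 0.369, against 2.88 ± 0.634 in WT) and Gli1 (0.497 ± 0.377, against 2.56 ± 0.315 in WT). In WT the libraries of the neighbours Gli3 and Gli2, Gli2 and Ptch1, Ptch1 and Gli1, and Cdon and Boc overlapped, and in DKO those of Cdon and Boc, Boc and Ptch1, Ptch1 and Gli1, and Gli1 and Hhip. The length counts every annotated exon of a gene, 14185 bases for Ptch1, so levels of genes with many alternative exons are understated.

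**Figure D2:**
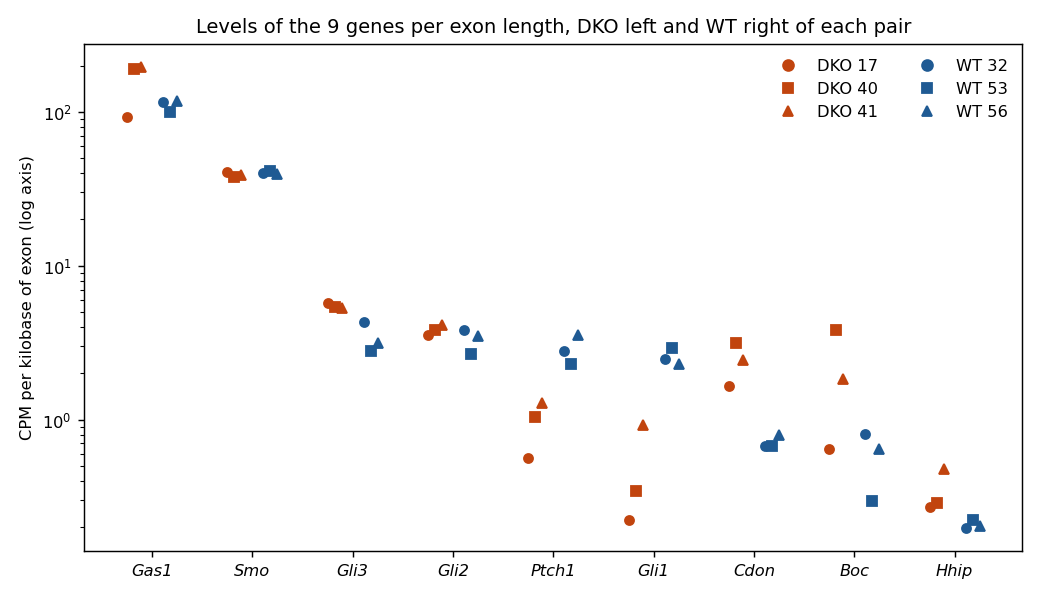
CPM per kilobase of exon (log axis) of the 9 genes in each library, DKO left and WT right within each pair, ordered by the WT mean. Gas1 and Smo lie far above the rest, and Gli1 and Ptch1 are the genes whose DKO libraries all lie below their WT libraries.

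In all, 2 of the 9 genes were called lower and 1 higher in DKO at an edgeR adjusted p under 0.05, beside 4.51% of the 19126 genes tested that were called in either direction, 2.81% lower and 1.7% higher. The libraries of the groups did not overlap for 5 of the 9, 2 lower and 3 higher, beside 21.9% of the genes tested. Their median log2 fold change was 0.53, against 0.03 over the genes tested. The genes were chosen with earlier results of these data known, so the counts describe them and add no test. Bulk libraries cannot tell fewer cells of a kind from less RNA per cell. With fits that left out 1 library, the 9 held 0 to 2 genes called lower and 0 to 3 called higher. Gli1 and Ptch1 were both lost without DKO 40, WT 32 or WT 56, fits in which 295, 313 and 247 genes were called in place of 863.

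**Figure D3:**
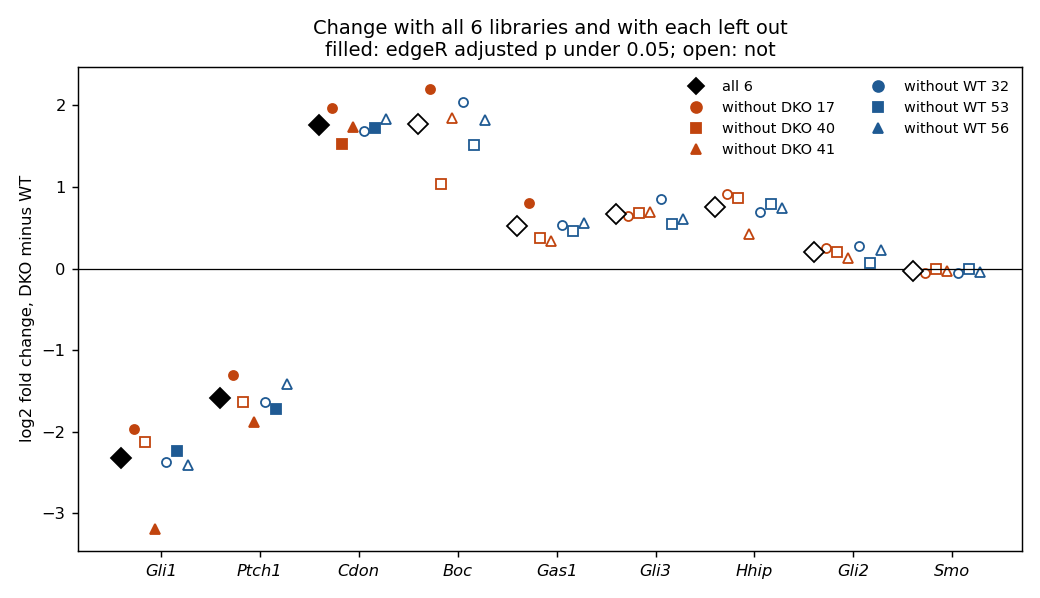
Log2 fold change (DKO minus WT) with all 6 libraries (diamond) and with each library left out, filled where the edgeR adjusted p is under 0.05. Gli1 and Ptch1 keep their direction between -3.19 and -1.31 but open in 3 fits each, and Boc and Gas1 fill only without DKO 17.

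Of 43 further listed genes of ligand release, reception, GLI regulation and the primary cilium, 39 passed the filter. In edgeR 0 of these were called lower and 0 higher, beside 2.81% and 1.7% of all genes tested. At an unadjusted p under 0.05, 2 were lower and 7 higher, beside 9.36% lower and 8.67% higher of all genes tested, 18% in all. limma-voom called 0 in either direction, and DESeq2 called 0 lower and 4 higher. Their median log2 fold change was 0.06, against 0.03 over all genes tested. Sufu, which holds GLI proteins in the cytoplasm, was at 45.1, 59.1 and 68.3 CPM in DKO 17, DKO 40 and DKO 41, against 62.7, 55.8 and 63.0 CPM in WT 32, WT 53 and WT 56 (edgeR adjusted p = 0.868). The ciliary kinesin gene Kif7 was at 15.7, 12.8 and 17.4 CPM in DKO and 18.1, 11.3 and 24.1 CPM in WT (edgeR adjusted p = 0.725). The groups overlapped for both genes, and 928 exon bases of Kif7 overlap other genes.

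Of the 18 cilium genes, all tested, 0 were called in either direction in edgeR, beside 4.51% of all genes tested. At an unadjusted p under 0.05, 0 were lower and 4 higher, beside the same 9.36% and 8.67% of all genes. Tctn1, a gene of the ciliary transition zone, was nearest to the threshold at 12.9 ± 3.22 CPM in DKO and 6.27 ± 0.362 CPM in WT (SD, n = 3 each, log2 fold change 1.04, edgeR adjusted p = 0.053). It passed under upper quartile scaling (adjusted p = 0.0454) and without DKO 17 (edgeR adjusted p = 0.0223). Of the 8295 exon bases of Tctn1, 2113 overlap genes on the other strand, whose reads unstranded libraries cannot separate. Of the 5 ligand release genes tested, 0 were called in edgeR, beside the same 4.51% of all genes. Scube1 was at 13.1, 13.9 and 49.0 CPM in DKO 17, DKO 40 and DKO 41, against 113, 53.4 and 145.6 CPM in WT 32, WT 53 and WT 56 (edgeR adjusted p = 0.112). With DKO 41 left out, Scube1 was called lower (log2 fold change -2.96, edgeR adjusted p = 0.0132). Scube2 had 111, 47 and 20 counts in DKO 17, DKO 40 and DKO 41, against 0, 0 and 4 in WT 32, WT 53 and WT 56, and was not called higher (edgeR adjusted p = 0.0866). Scube3 was at 60.98, 73.2 and 73.1 CPM in the same DKO libraries, against 59.8, 54.4 and 57.1 CPM in the WT libraries, and was not called either (edgeR adjusted p = 0.303). The 3 genes, whose products help release hedgehog ligands, thus lay in different directions, Scube1 lower and Scube2 and Scube3 higher in each DKO library. Tctn1 and the Scube genes were chosen after their values were seen.

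**Figure D4:**
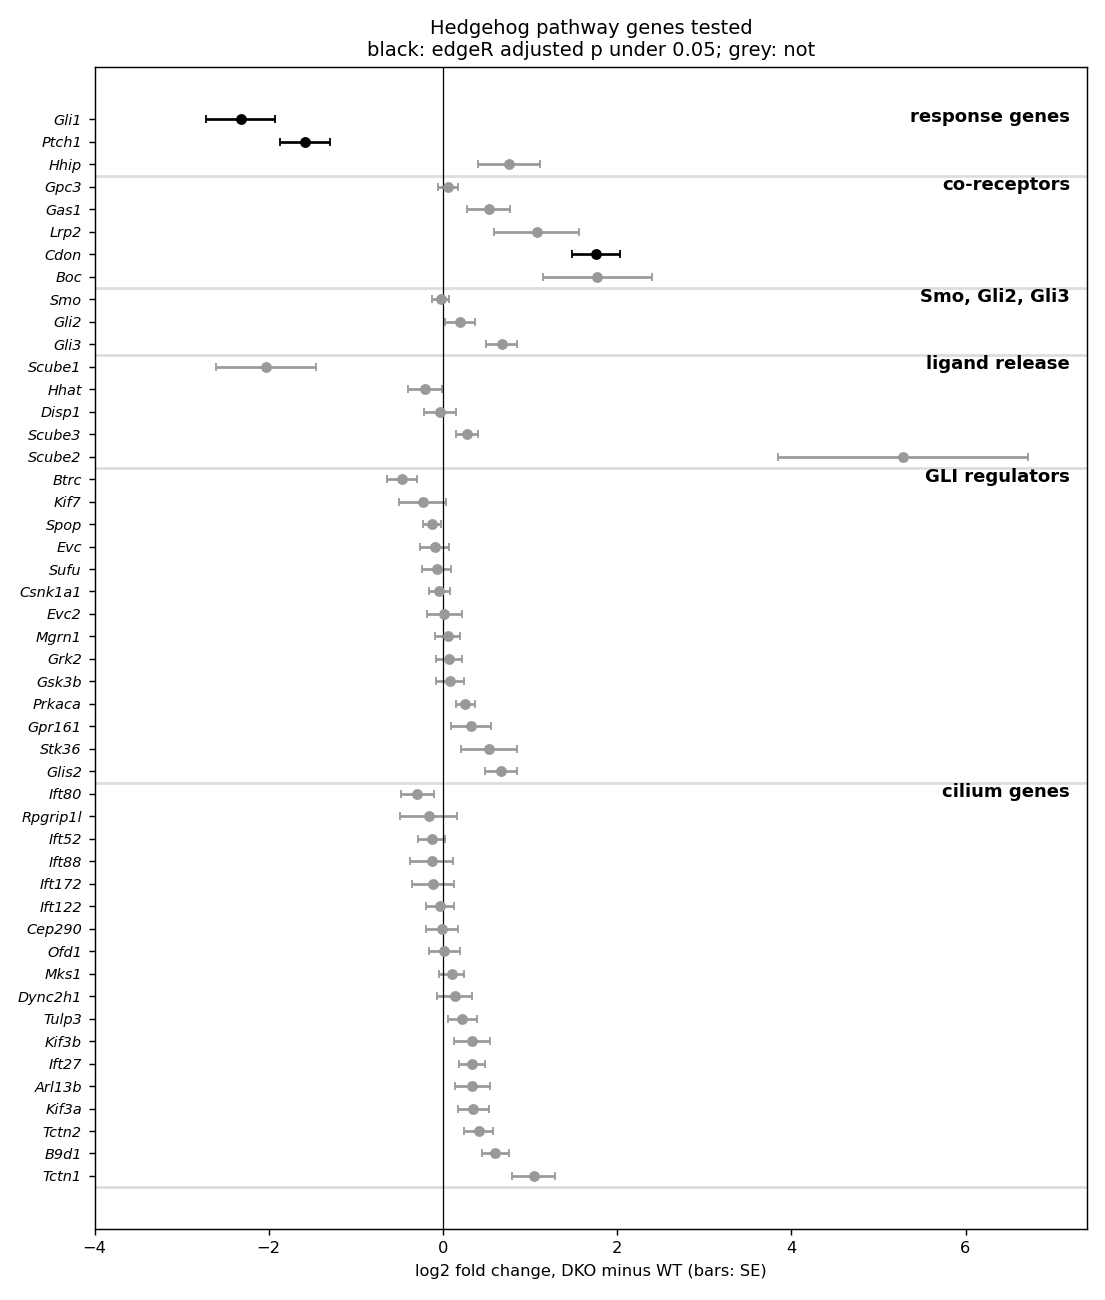
Log2 fold change (DKO minus WT, bars are SE) of the 9 genes and the 39 other listed pathway genes tested, by role, black where the edgeR adjusted p is under 0.05. Gli1 and Ptch1 are black on the left and Cdon on the right, and the cilium genes lie between -0.29 and 1.04.

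Markers of other cells differed between the libraries. Summed over the 17 limb mesenchyme markers, some of which the ectoderm also expresses, levels ran from 1402 to 1857 CPM in DKO and from 1066 to 1247 CPM in WT, with 1 of 17 called lower (Pdgfra) and 2 higher (Meis1 and Meis2) and none at 0 in every library. Msx1 alone made 536.1 to 1185 CPM of the sum in DKO and 281.7 to 498.1 CPM in WT. The other 16 markers summed to 672, 897 and 866 CPM in DKO 17, DKO 40 and DKO 41. In WT 32, WT 53 and WT 56 they summed to 784, 749 and 718 CPM, so these sums overlapped, lowest in DKO 17. Of the 17 markers, 5 were higher in each DKO library than in each WT library and 2 were lower. Over all genes tested, the groups did not overlap for 21.9%. Prrx2, 1 of the 5, was at 83.0, 174.3 and 65.4 CPM in the same DKO libraries and 49.4, 37.3 and 18.5 CPM in the WT libraries. Col1a2, 1 of the 2, was at 99.7, 161.6 and 173.2 CPM in DKO and 203.7, 316.2 and 266.8 CPM in WT. Twist1, on the same list, was at 20.4, 46.7 and 21.4 CPM in DKO 17, DKO 40 and DKO 41, against 14.8, 3.06 and 1.47 CPM in WT 32, WT 53 and WT 56. The groups did not overlap for Twist1, as for Cdon. Over the DKO libraries Cdon had the order of Prrx1 and Twist1, lowest in DKO 17 and highest in DKO 40. Prrx2 was lowest in DKO 41 and Col1a2 was highest there. Cdon was at 5.18 CPM in WT 32, the WT library with the most Prrx1 and Twist1, beside 5.20 and 6.12 CPM in the other WT libraries. The part of mesenchyme RNA in the rise of Cdon was not tested.

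Summed over 15 ectoderm markers, levels were 3113, 2816 and 3845 CPM in DKO 17, DKO 40 and DKO 41. In WT 32, WT 53 and WT 56 they were 4341, 4535 and 4812 CPM. Of the 15, 3 were called lower (Epcam, Cdh1 and Perp) and 1 higher (Krt8), beside 2.81% and 1.7% of all genes tested. Each DKO library lay below each WT library for 8 of the 15 and above for 1. Over all genes tested, the groups did not overlap for 21.9%. At an unadjusted p under 0.05, 10 were lower and 1 higher, beside 9.36% and 8.67% of all genes. The 17 ridge markers summed to 690 to 1018 CPM in DKO and 2902 to 3519 CPM in WT. In edgeR 11 were called lower and 0 higher (0 higher at an unadjusted p under 0.05), beside the same 2.81% and 1.7% of all genes. Fgf8, a growth factor gene and ridge marker, was at 13.5, 0.261 and 0.93 CPM in DKO 17, DKO 40 and DKO 41, against 1181, 1209 and 1387 CPM in WT 32, WT 53 and WT 56. Gli1 was at 1.10, 1.71 and 4.63 CPM in DKO 17, DKO 40 and DKO 41. Both Gli1 and the ectoderm sum were highest in DKO 41. DKO 40 had more Gli1 than DKO 17 but a lower ectoderm sum. Fgf8 was highest in DKO 17, where Gli1 was lowest. Whether ridge cells or other ectoderm carried Gli1 and Ptch1 was not tested.

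The 10 blood markers summed to 27.5, 128 and 919 CPM in DKO 17, DKO 40 and DKO 41, against 0.59, 302 and 0.71 CPM in WT 32, WT 53 and WT 56. The 10 endothelial markers summed to 3.25 to 10.2 CPM in DKO and 1.69 to 1.92 CPM in WT, and 1 of 6 tested was called (Sox17, higher). Without Sox17 the endothelial sums overlapped, at 1.31 to 2.20 CPM in DKO and 1.39 to 1.86 CPM in WT. Nerve and crest markers (8 genes) summed to 45.7 to 58.7 CPM in DKO and 111.4 to 154 CPM in WT, with Tubb3 called lower and Ednrb higher. Without Tubb3 the direction turned, with sums of 44.5 to 54.7 CPM in DKO and 38.4 to 40.9 CPM in WT. Somite markers (7 genes) summed to 13.8 to 29.6 CPM in DKO and 61.4 to 82.2 CPM in WT, with Meox1 called lower. Without Meox1 the somite sums overlapped, at 1.84 to 5.03 CPM in DKO and 1.32 to 8.86 CPM in WT. Of these lists, Cdh5 and Foxd3 were at 0 in all 6 libraries. Without both the library with the most Prrx1 (WT 32) and that with the most blood markers (DKO 41), Gli1 was called at a log2 fold change of -3.24 (edgeR adjusted p = 0.0155), while Ptch1 (-1.92, adjusted p = 0.0548) and Cdon (1.66, adjusted p = 0.1) were not.

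**Figure D5:**
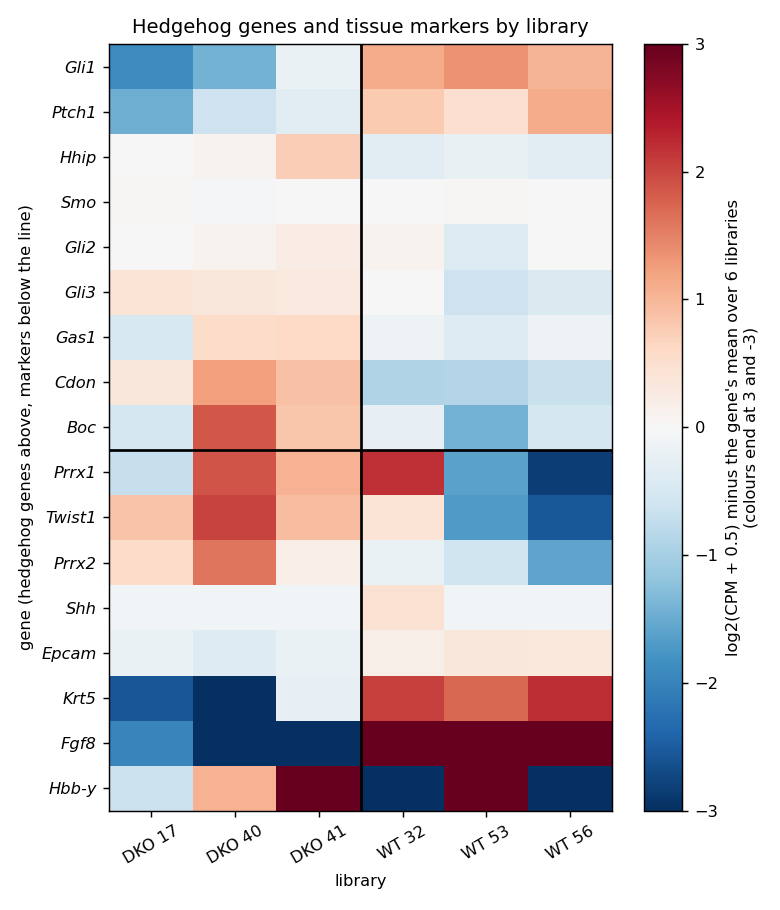
Difference of log2(CPM + 0.5) from each gene's mean over the 6 libraries (colour, ending at 3 and -3), for the hedgehog genes above the line and tissue markers below it. Gli1 and Ptch1 are blue in DKO and red in WT, as are Krt5 and Fgf8. Within DKO the rows of Boc, Cdon, Prrx1 and Twist1 have the same order of libraries.

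Likeness of pattern was measured as the root mean square difference of log2(CPM + 0.5) over the 6 libraries after centring each gene, among 10058 protein-coding genes averaging at least 5 CPM. Nearest to Ptch1 were Dll1 (0.13), a NOTCH ligand gene, Gas6 (0.132), a ligand of the TAM receptors, and Fbln2 (0.161), a matrix protein gene. Dll1 was at 2.40, 4.90 and 6.94 CPM in DKO 17, DKO 40 and DKO 41, against 17.0, 12.7 and 21.4 CPM in WT 32, WT 53 and WT 56, and so shared with Ptch1 the order of all 6 libraries. Nearest to Gli1 were S100a16 (0.241), a calcium-binding protein gene, the small heat shock protein gene Hspb1 (0.263) and Svopl (0.283), of the transporter family.

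Nearest to Cdon were the type IV collagen gene Col4a5 (0.0954), the matrix gene Tgfbi (0.162) and Ppfibp2 (0.175), of the liprin family. Col4a5 was at 49.1, 81.5 and 58.3 CPM in DKO 17, DKO 40 and DKO 41, against 19.6, 18.2 and 22.2 CPM in WT 32, WT 53 and WT 56. As with Cdon, the WT libraries lay close together and DKO 40 was the highest. Within the 9 genes, Ptch1 and Gli1 were each other's nearest (0.527), as were Cdon and Boc (0.558), Gas1 and Hhip (0.309), and Gli2 and Smo (0.221), while Gli3 was nearest to Gli2 (0.276). Gli1 was the farthest gene from each of the others but Ptch1, whose farthest was Cdon (1.64). These values describe 6 libraries.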

How the data were processed

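RNA was made into libraries with SMART-Seq and Nextera XT kits (per the labels' protocols), a chemistry without strand or molecular identifiers. The authors deposited raw counts per gene. The submitters' processing notes name FastQC, fastp, HISAT2, Cufflinks, StringTie and DESeq2 with GRCm38 and mm10; their versions and roles, and the counting step, were not given in the sources used here. The 6 columns were assigned to the E9.75 groups by name; their numbers match no replicate number of the labels, and no source ties samples to embryos, so the p-values cover only spread among these libraries, which may be technical. Within each group every pair of libraries differed by more than sampling noise (chi-square per degree of freedom 54.6 or more).

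Counts were tested with edgeR 4.0.16 in R 4.3.3 (filterByExpr, TMM, and the quasi-likelihood test of glmQLFit with legacy=FALSE, not the default of this version, and robust dispersions), with Benjamini-Hochberg adjustment over 19126 genes. SEs were derived from the F statistic. CPM are TMM-scaled. limma 3.58.1 (voom) and DESeq2 1.42.0 were alternatives, with other scalings, filters and left-out libraries. The test was also run on simulated counts with set changes. These were drawn from the model that the test assumes, so that run does not check the model on these libraries. Positions, exon lengths and exon overlaps came from GENCODE M21 (GRCm38), which matched 99.53% of identifiers. The 9 genes, the gene lists and the settings were chosen with earlier results of these data known. Named genes were the 9, Sp8, Sp6, each called pathway gene, the ligands, Sufu, Kif7, the 3 genes nearest in pattern to Ptch1, Gli1 and Cdon, and, of the marker lists, Prrx1, Fgf8, Epcam and genes that stood apart; exceptions are marked. Some pathway genes are not reported here and stand outside the pathway lists and counts.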

Additional observations from a re-analysis of the deposited data

How the results depend on the processing

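The main fit called 863 genes (4.51% of those tested). In other fits the total was 412 (1.38%) with no filter on low counts, 546 (2.85%) with legacy=TRUE and 1737 (8.23%) by the DESeq2 Wald test. It was 377 (1.97%) without both WT 32 and DKO 41 (a choice made after seeing the data), and 247 to 917 (1.23% to 4.61%) with 1 library left out. Each is the total of its own fit and not a part of the 863. Of the 9 genes, 2 were called lower, against 1 with no filter, with legacy=TRUE and without both libraries, and 0 to 2 with 1 library left out. The 1 called higher became 2 with upper quartile scaling or a mean of 1 CPM or more, 3 by DESeq2, 0 without both libraries and 0 to 3 with 1 left out. Of the other listed pathway genes, the 0 called lower in edgeR became 1 without both libraries and 0 to 1 with 1 left out, and the 0 called higher became 1 with upper quartile scaling or a mean of 1 CPM or more, 4 by DESeq2 and 0 to 2 with 1 left out.

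Ptch1 was lost with no filter (adjusted p = 0.06) and Gli1 with legacy=TRUE (adjusted p = 0.0597). Over the alternatives that kept all 6 libraries, the adjusted p of Ptch1 otherwise lay at or below 0.0469, that of Gli1 at or below 0.0469 and that of Cdon at or below 0.0319. Smo reversed to a log2 fold change of 0.016 with upper quartile scaling. With 1 library left out, Sufu ranged from -0.23 to 0.074 and Kif7 from -0.46 to 0.036. The cause of these shifts was not tested, and fits on fewer libraries have fewer samples. No paired analysis was possible because the columns carry no replicate numbers of the labels.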

Other observations

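Of 20 genes that respond to hedgehog signalling in other tissues, 12 passed the filter. In edgeR 0 were called lower and 1 higher, beside 2.81% and 1.7% of all genes tested. At an unadjusted p under 0.05, 5 were lower and 2 higher, beside 9.36% and 8.67%, with a median log2 fold change of -0.35 over the 12, against 0.03 over all genes. The 5 were Osr1, Grem1 and Hoxd11, each highest in WT 32, and Bcl2 and Mycn. Bcl2, a survival gene, was at 8.80, 8.49 and 11.5 CPM in DKO 17, DKO 40 and DKO 41, against 17.3, 11.5 and 17.6 CPM in WT 32, WT 53 and WT 56 (log2 fold change -0.69, edgeR adjusted p = 0.151). Mycn, a growth regulator, was at 230.7, 127.1 and 163 CPM in the same DKO libraries, against 236, 311.3 and 207 CPM in the WT libraries (log2 fold change -0.53, edgeR adjusted p = 0.252). The groups overlapped for both genes. The gene called higher was Tbx2, a T-box repressor, at 7.83, 25.9 and 10.7 CPM in DKO 17, DKO 40 and DKO 41, against 3.17, 2.94 and 1.32 CPM in WT 32, WT 53 and WT 56 (log2 fold change 2.59, SE 0.54, edgeR adjusted p = 0.0313). Its call was lost without DKO 40, where the log2 fold change was 1.93, and without any single WT library (edgeR adjusted p up to 0.157). It was also lost with no filter, with legacy=TRUE and in limma-voom (adjusted p = 0.0862, 0.0519 and 0.0604). Foxa2, Nkx2-2 and Foxl1, which hedgehog signalling turns on in the floor plate, the ventral neural tube and the gut, had 0 counts in all 6 libraries. Genes of this list were named after their values were seen.

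The posterior limb genes on that list stood apart in 1 library. WT 32 had 519 counts of Hoxd13, 786 of Hoxd12, 1114 of Hoxd11 and 896 of Grem1. WT 53 had 0, 0, 13 and 27 counts of these genes, and WT 56 had 18, 25, 5 and 31. In the DKO libraries their highest counts were 8, 0, 10 and 54.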
